A study of Mus musculus with 6 samples.

Results

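Collagen VI, the fibril-associated collagens XII, XIV and XVI, and collagens VII and VIII were followed in cultured cells of the mouse lacrimal gland through 10 genes: Col6a1, Col6a2, Col6a3, Col6a5, Col6a6, Col12a1, Col14a1, Col16a1, Col8a1 and Col7a1. They were chosen by symbol, from probe sets annotated with exactly 1 gene, and a gene with more than 1 such probe set was read from the brightest on average. All 10 were measured, among 22180 genes in all. RNA came from cells described as myoepithelial, the contractile cells that wrap the secretory units of the gland, grown from exorbital lacrimal glands of female mice. Of 6 Affymetrix Mouse Gene 2.0 ST arrays, 3 were of cells from TSP1 null mice and 3 of cells from wild-type C57BL/6J mice. TSP1 null mice carry a disrupted Thbs1, the gene of the matricellular protein thrombospondin-1, and serve in this series as a model of dry eye disease. The strain of the null mice is labelled only as TSP1 null (the sample titles write TSP1-1), and ages were not given. The glands were digested with collagenase, and RNA was taken after 2 to 3 weeks of culture in serum, without treatment. Cells were not sorted before culture in the protocol given. Arrays of a group are labelled as biological replicates, but whether each stands for a separate animal or culture is not said, so every p-value rests on the spread among these arrays, which may be technical.

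Collagen VI is built from a chain encoded by Col6a1, a chain encoded by Col6a2 and a further chain, most often that of Col6a3, which the chains of Col6a5 and Col6a6 can replace. The trimers assemble inside the cell and form beaded microfibrils in the matrix next to cells, where they link basement membranes, fibrillar collagens and cell surface receptors. Fibril-associated collagens with interrupted triple helices (FACITs) coat the surface of fibrils made of collagens I and III and set their spacing. Collagen VII forms the anchoring fibrils that fasten an epithelial basement membrane to the tissue under it, and collagen VIII forms a short-chain network in vessel walls and under the corneal endothelium.

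The values are log2 signals after robust multi-array averaging (RMA), and each difference is the mean of the null arrays minus the mean of the wild-type arrays. Medians over all probe sets lay between 5.25 and 5.32 on the 6 arrays, and correlations between arrays between 0.978 and 0.988. Thbs1 itself was lower on every null array, by 0.68 (SE 0.13) on the log2 scale. It still had a signal of 12.73 to 13.03 there, and where its probes lie relative to the disruption was not known here. The smooth muscle actin gene Acta2, a contractile marker of myoepithelial cells, was at 13.85 to 14.01 on all arrays. The other contractile markers had mean signals of 12.63 (Myl9), 12.35 (Tagln), 12.03 (Cnn1), 8.89 (Smtn), 8.81 (Myh11), 6.06 (Des) and 5.78 (Oxtr). The basal keratin gene Krt14 reached only 4.93 to 6.35. Trp63, a basal epithelial regulator, reached 4.47 to 4.93 and lay below the array median everywhere. Pdgfra, a fibroblast receptor, was at 11.27 to 12.11. Mean signals of the other fibroblast markers were 12.41 (Mfap5), 12.39 (Dcn), 11.10 (Thy1), 8.82 (Twist1) and 8.46 (Cd34). Those of Dpt, Lum, Fap and Pi16 were 7.77, 7.29, 5.57 and 5.29. The mean of 15 macrophage markers was 9.45, 10.30 and 7.70 in the null group and 10.14, 10.77 and 10.92 in the wild-type group, with every marker lower on average in the null group. In such bulk RNA, fewer cells of a type and less RNA per cell cannot be told apart.

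Signals of Col6a1, Col6a3, Col16a1 and Col7a1 were higher on all 3 null arrays than on all 3 wild-type arrays, with differences between 0.42 and 0.76. Col6a2 had a difference of 0.75 but its groups overlapped. The other 5 genes, Col6a5, Col6a6, Col12a1, Col14a1 and Col8a1, had differences between -0.11 and 0.07. No member passed the test over all genes. In limma's moderated test 0 of 22180 genes (0%) had a Benjamini-Hochberg adjusted p under 0.05, and the smallest adjusted p among the members was 0.294, for Col16a1. An ordinary linear model also called 0 genes.

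At an unadjusted limma p under 0.05, 4 of the 10 members were higher in the null group, where 6.28% of all genes were, and 0 were lower, where 4.27% of all genes were (10.6% in either direction, 2341 genes). With each array centred on its median these shares were 8.26% higher and 3.19% lower, and Col6a2 joined the 4 members. The null arrays lay wholly above the wild-type arrays for the same 4 members, against 10.1% of all genes, and wholly below for 0, against 5.75% (15.8% in either direction). Differences were positive for 7 of 10 members and for 55.1% of all genes. The median difference was 0.25 over the members and 0.02 over all genes. These shares describe a list chosen with results of the same arrays known and are no test of it.

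**Figure D1:**
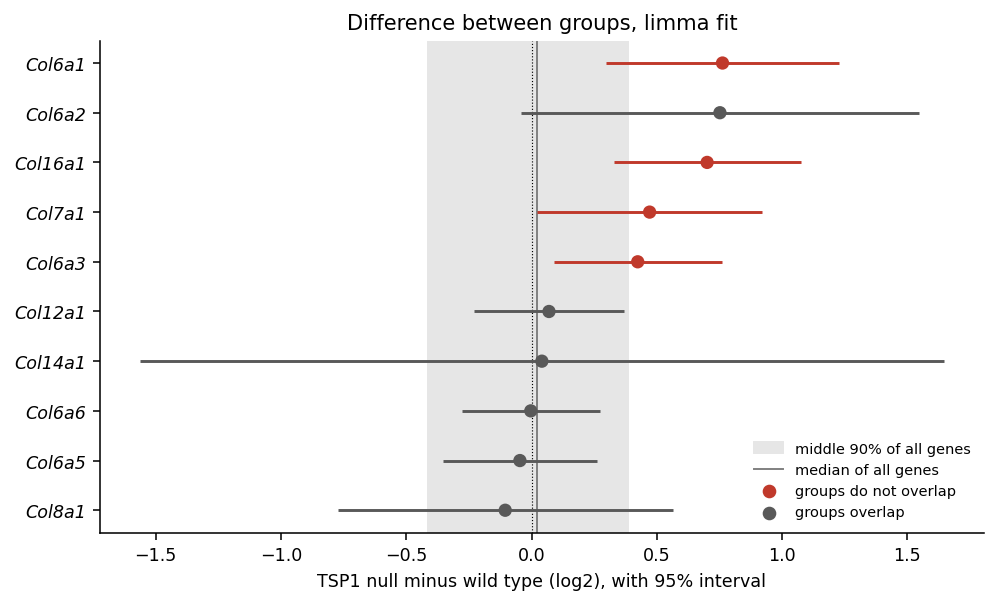
Difference of each collagen gene between TSP1 null and wild-type arrays on the log2 scale (points, limma fit, n = 3 per group) with its 95% interval (lines). The grey band holds the middle 90% of the 22180 genes, from -0.41 to 0.38, and the points of Col6a1, Col6a2, Col16a1, Col7a1 and Col6a3 lie to its right.

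The main chains of collagen VI were all higher on average in the null group. Col6a1, which encodes the first chain of the trimer, measured 11.36, 11.48 and 11.40 on the null arrays and 11.11, 10.32 and 10.52 on the wild-type arrays. The null values lay close together and above every wild-type value, of which the first came nearest. The difference was 0.76 (SE 0.20, 95% interval 0.30 to 1.23), or 1.70-fold, with a limma p of 0.00555 and an adjusted p of 0.321. Another probe set with only the Col6a1 symbol, with a mean signal of 7.16 against 11.03 for the one used, gave a difference of 0.33 (SE 0.32), and its first wild-type value of 7.74 was above all its null values. The mean of both probe sets differed by 0.55 (limma adjusted p = 0.499). With probe sets averaged, 3 members rather than 4 had an unadjusted p under 0.05, and 6.18% of all genes were higher at that p.

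Col6a2, the chain that pairs with Col6a1 in every collagen VI trimer, measured 9.38, 9.62 and 9.33 on the null arrays and 9.46, 7.93 and 8.69 on the wild-type arrays. The first wild-type array lay among the null values and the second far below them. The difference of 0.75 (SE 0.34, 95% interval -0.04 to 1.54) had a limma p of 0.0601 and an adjusted p of 0.493. It was 0.37 without the second wild-type array and 1.14 without the first. In the mouse genome Col6a2 and Col6a1 are neighbours on chromosome 10, with 0 protein-coding genes starting between them.

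Col6a3, which encodes the large further chain, measured 10.58, 10.63 and 10.73 on the null arrays and 10.12, 10.05 and 10.50 on the wild-type arrays. The groups did not overlap, although the third wild-type array came close to the lowest null array. Its difference of 0.42 (SE 0.14, 95% interval 0.09 to 0.76, 1.34-fold) had a limma p of 0.0196 and an adjusted p of 0.391. In 12 of the 17 alternatives the unadjusted p stayed under 0.05. The chains that can stand in for it showed no such difference. Col6a5 had signals of 4.04, 4.27 and 4.34 in the null group and 4.30, 4.39 and 4.10 in the wild-type group, below the median of all probe sets on each array. Col6a6 was at 5.93, 5.78 and 5.82 against 5.73, 6.01 and 5.79. Null and wild-type values were mixed for both, with differences of -0.05 (95% interval -0.35 to 0.26) and -0.0030 (95% interval -0.28 to 0.27). Signals this dim are compressed by the background in RMA values. Col6a4, a further alternative chain whose gene lies beside Col6a5 and Col6a6 on chromosome 9, had a difference of -0.08 (SE 0.11).

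**Figure D2:**
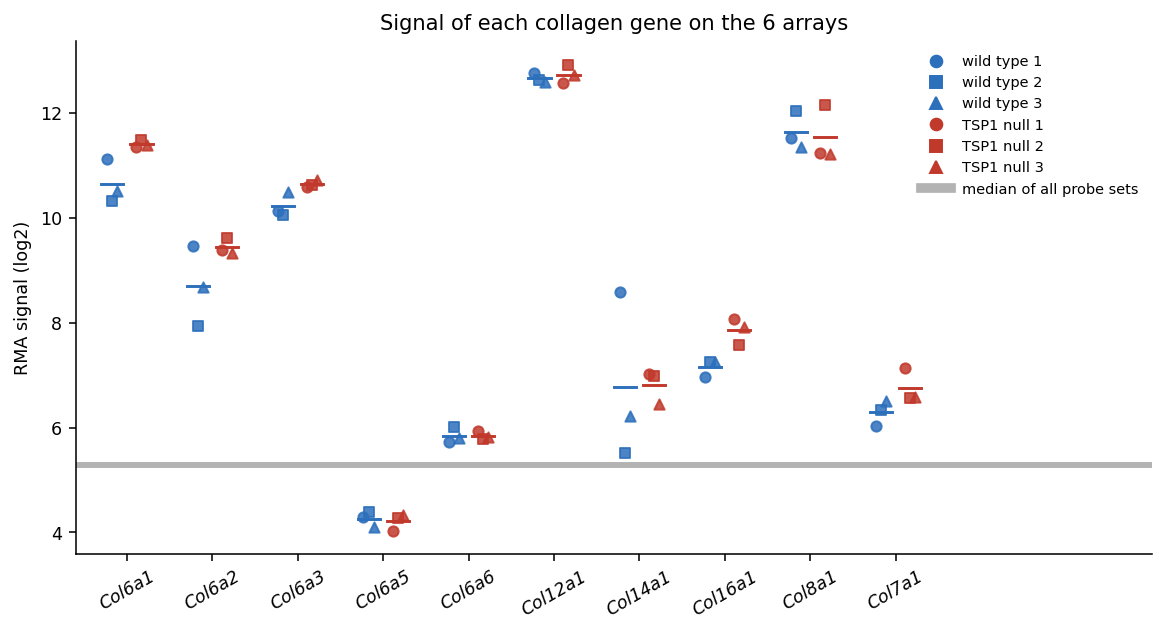
RMA log2 signal of each collagen gene on the 3 wild-type (blue) and 3 TSP1 null (red) arrays, with symbols for the replicate number, bars for the group means and a grey band for the array medians of 5.25 to 5.32. Heights of different genes are not comparable because their probe sets differ, but within a gene the red points of Col6a1, Col6a3, Col16a1 and Col7a1 lie above all blue points, and the blue points of Col14a1 span 5.52 to 8.58.

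Of the 3 FACIT genes, only Col16a1 had groups that did not overlap. Col16a1, which encodes a minor FACIT found near basement membranes and fibrillin microfibrils, measured 8.08, 7.57 and 7.92 on the null arrays and 6.96, 7.24 and 7.26 on the wild-type arrays. Every null value was higher, with a difference of 0.70 (SE 0.16, 95% interval 0.33 to 1.07), or 1.63-fold. Its limma p of 0.00268 was the smallest of the members (adjusted p = 0.294). In all 17 alternative analyses the unadjusted p stayed under 0.05, with differences from 0.59 to 0.84 and limma adjusted p from 0.0577 to 0.832.

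Col12a1 encodes collagen XII, a large FACIT of dense connective tissue that lies along collagen I fibrils. Its signals were 12.57, 12.92 and 12.72 on the null arrays and 12.77, 12.63 and 12.59 on the wild-type arrays. The groups were mixed, with the lowest and the highest value both on null arrays. The difference was 0.07 (SE 0.13), and its 95% interval of -0.23 to 0.37 leaves out a change of the size fitted for Col6a1 or Col16a1.

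Col14a1, which encodes the related collagen XIV, measured 7.02, 6.98 and 6.45 on the null arrays and 8.58, 5.52 and 6.23 on the wild-type arrays. The wild-type arrays held both the highest and the lowest value, and their SD was 1.60 against 0.32 in the null group. The difference of 0.04 (SE 0.69, 95% interval -1.56 to 1.65) thus leaves a change in either direction undetermined. It became 0.94 without the first wild-type array and -0.59 without the second.

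Among the collagens that form other structures, Col7a1, the anchoring fibril collagen, measured 7.13, 6.57 and 6.58 on the null arrays and 6.03, 6.33 and 6.50 on the wild-type arrays. The groups did not overlap, and the first null array stood above the other two. The difference was 0.47 (SE 0.19, 95% interval 0.02 to 0.92, 1.39-fold), with a limma p of 0.0418 and an adjusted p of 0.457. It was 0.29 without the first null array, and the unadjusted p stayed under 0.05 in 9 of the 17 alternatives. The mean of 6 basal epithelial markers, all 6 higher on average in the null group, was 5.97, 5.87 and 5.62 there against 5.38, 5.30 and 5.51, and was likewise highest on the first null array. Col16a1 and the mean of the acinar and ductal markers were highest on that array too, and the means of the fibroblast and macrophage markers were not. Whether the basal markers have a part in the difference of Col7a1 was not tested. Col8a1, a chain of the short-chain collagen VIII, measured 11.24, 12.15 and 11.22 on the null arrays and 11.53, 12.04 and 11.34 on the wild-type arrays. The second array of each group was its highest, and the groups overlapped. The difference was -0.11 (SE 0.29, 95% interval -0.77 to 0.56).

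Whether paired chains changed unequally was asked for 5 pairs of members with an exact two-sided permutation test of the within-array difference, which cannot go below p = 0.1 with 3 arrays per group. The change of Col6a1 exceeded that of Col6a2 by 0.01 (95% interval -0.63 to 0.65, exact p = 1) and that of Col6a3 by 0.34 (95% interval -0.49 to 1.16, exact p = 0.4). The change of Col6a2 exceeded that of Col6a3 by 0.33 (95% interval -0.94 to 1.60, exact p = 0.5). Between Col6a5 and Col6a6 the difference was -0.04 (95% interval -0.47 to 0.38, exact p = 0.8), and between Col12a1 and Col14a1 it was 0.03 (95% interval -2.47 to 2.53, exact p = 1). Adjusted over the 5 pairs every p was 1. The intervals are wide, so the similar changes of Col6a1 and Col6a2 do not show that the chains moved in equal measure.

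The arrays of a group were uneven in these genes. Around the mean over the 6 arrays, Col6a2 lay at 0.39, -1.14 and -0.38 on the wild-type arrays, Col14a1 at 1.79, -1.28 and -0.57, and Col6a1 at 0.08, -0.71 and -0.52. All 3 were highest on the first wild-type array within their group and lowest on the second. The mean of 10 fibroblast markers other than collagens was 0.96, -0.43 and -0.22 for the same arrays, against -0.38, 0.31 and -0.25 in the null group, so it too was highest on the first wild-type array. Col16a1 and Col7a1 ran the other way, lowest of all on that array at -0.54 and -0.49. With the fibroblast mean as a term in the limma fit the differences were 0.86 for Col6a1, 0.93 for Col6a2, 0.41 for Col6a3, 0.64 for Col16a1, 0.40 for Col7a1 and 0.41 for Col14a1, and 5 members had an unadjusted p under 0.05, among 11.4% of all genes.

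Macrophage markers, centred likewise, were at -0.43, 0.42 and -2.18 in the null group and 0.26, 0.89 and 1.04 in the wild-type group. With their mean as a term, the differences were 0.68 for Col6a1, 0.70 for Col6a2, 0.40 for Col6a3, 0.62 for Col16a1 and 0.61 for Col7a1. Unadjusted p under 0.05 then remained for Col6a1 and Col16a1, among 5.84% of all genes, and the adjusted p of both was 0.832. The third null array, lowest in macrophage markers, measured 11.40 for Col6a1 and 7.92 for Col16a1. Without it the differences were 0.77 and 0.67. That of Col6a3 was then 0.38 (limma adjusted p = 0.745, and 0.321 to 0.832 over the 17 alternatives). For genes whose groups do not overlap, leaving out 1 array cannot turn the sign. Whether macrophage content has a part in these differences was not tested.

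**Figure D3:**
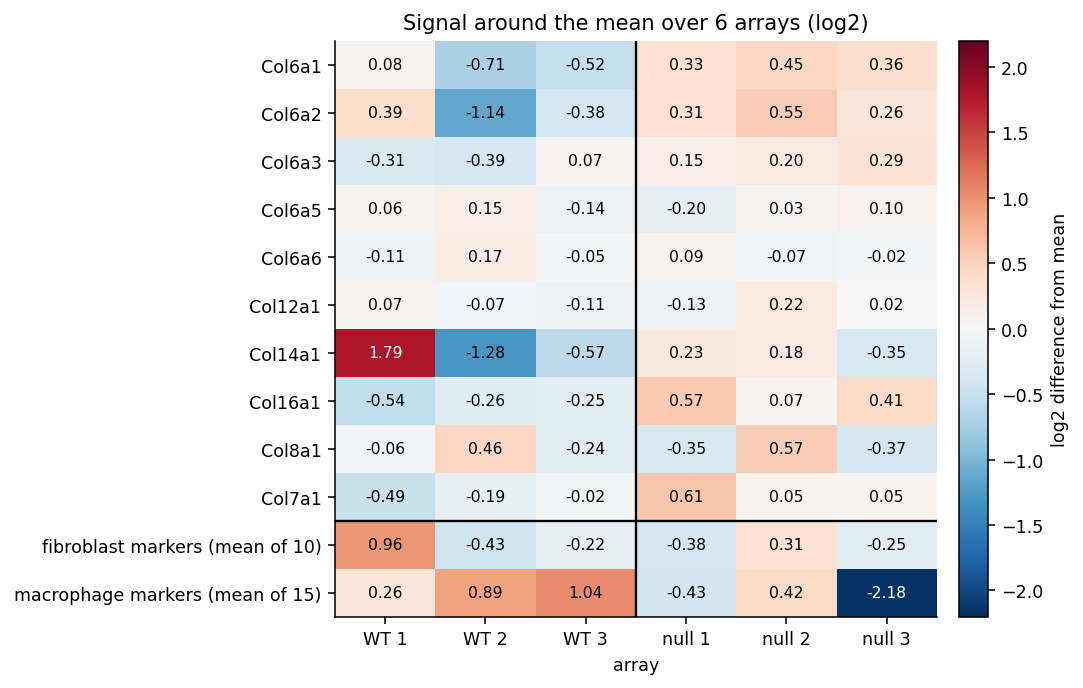
Signal of each collagen gene, and the mean of 10 fibroblast and 15 macrophage markers, as the log2 difference from its own mean over the 6 arrays (colour and printed value). Col6a1, Col6a2 and Col14a1 are highest among the wild-type arrays on the first, as are the fibroblast markers at 0.96, and the macrophage markers are lowest on the third null array at -2.18.

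Genes of the same matrix were counted from 6 lists, beside 6.28% of all genes higher and 4.27% lower at an unadjusted limma p under 0.05 (10.6% in either direction). Counts of 1 of 10, 0 of 9 or 1 of 11 are near that share and are no result about their lists. Of 9 chains of the fibrils that collagen VI and the FACITs bind, 7 had an unadjusted limma p under 0.05, all higher in the null group, and 0 passed over all genes. The lowest p belonged to Col5a2 (difference 1.00, SE 0.16, adjusted p = 0.194), followed by Col5a1 (0.68, SE 0.14) and Col1a2 (0.51, SE 0.11). The median difference of the list was 0.53. Among 16 measured genes of chain folding and export 6 were higher at an unadjusted p under 0.05 and 0 lower, with a median of 0.29. They were led by P4ha2, a prolyl hydroxylase subunit that stabilises the triple helix, at 0.92 (SE 0.17, adjusted p = 0.233), Sec24d, a coat protein of the vesicles that carry procollagen, at 0.45 (SE 0.12), and P4ha1 at 0.41 (SE 0.11).

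Receptors and matrix partners of the members were counted in the same way. Of 10 receptors of collagen VI and related collagens, 1 had an unadjusted p under 0.05 (10.6% of all genes in either direction): Itga11, the alpha subunit of a collagen-binding integrin. It measured 11.82, 11.50 and 11.36 on the null arrays and 10.63, 9.65 and 10.13 on the wild-type arrays, a difference of 1.42 (SE 0.25, 2.68-fold, adjusted p = 0.213). Ddr2, a collagen-activated receptor kinase, had a difference of 0.25 (SE 0.12) and Antxr1, an anthrax toxin receptor that binds collagen VI, 0.22 (SE 0.16). The median of the receptors was 0.13. Of 16 matrix partners 3 were higher at an unadjusted p under 0.05 and 0 lower, with 8 positive and 8 negative differences and a median of 0.03. The 3 were the fibulin gene Fbln2 (0.37, SE 0.12), Tnc, which encodes tenascin-C (0.35, SE 0.13), and the perlecan gene Hspg2 (0.33, SE 0.13).

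Of 9 measured partners of the anchoring fibril, 0 had an unadjusted p under 0.05 in either direction in the limma fit, and the lowest p values were those of Plec (plectin, 0.28, SE 0.14), Bmp1, whose protease trims procollagen VII (0.27, SE 0.13), and Fermt1 (0.77, SE 0.46). The 11 other measured FACIT and network collagens had a median of 0.10, and 1 of them, Col8a2, had an unadjusted p under 0.05. Col8a2 encodes the second chain of collagen VIII and measured 7.33, 7.06 and 7.11 on the null arrays and 7.05, 6.52 and 6.56 on the wild-type arrays, a difference of 0.46 (SE 0.17, adjusted p = 0.417), beside -0.11 for Col8a1. Whether the 2 chains of collagen VIII differ in this was not tested. Next were Col19a1 (0.10, SE 0.10) and Col9a2 (0.14, SE 0.14).

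**Figure D4:**
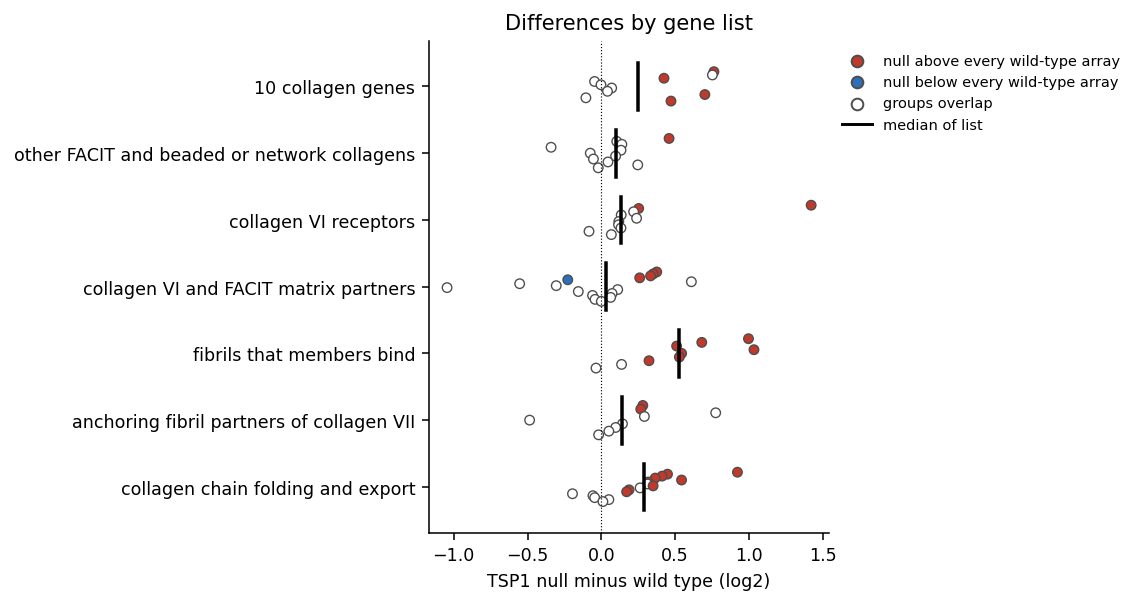
Difference of each gene between TSP1 null and wild-type arrays on the log2 scale, by list, with the list's median as a bar. Red points are genes whose null arrays all lie above the wild-type arrays, which holds for 4 of the 10 collagen genes and 7 of 9 chains of the fibrils they bind, against 10.1% of all genes.

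Genes with the most similar profiles were sought by the root mean square difference over the 6 arrays between profiles centred on their own mean, among some 7975 genes with a mean signal of at least 7. Nearest to Col6a1 were Aebp1, which encodes a secreted collagen-binding protein (0.08 log2 units apart), Denn2b (0.093) and Pde5a, a cyclic GMP phosphodiesterase (0.10). Col6a2 was nearest to Csgalnact1, an enzyme of chondroitin sulfate synthesis (0.099), the ephrin receptor gene Epha4 (0.12) and the chemokine gene Cxcl12 (0.14). Col6a3 was nearest to Zfp821 (0.045), the prostacyclin synthase gene Ptgis (0.070) and Ado (0.076). For Col12a1 the nearest were Lpgat1, Phf3 and R3hcc1l, at 0.024 to 0.029, genes that like it varied little. For Col14a1 they were Gfra2 (0.27), Fbln1 (0.31) and Ccl11 (0.32). Among the members themselves, Col6a1 and Col6a2 were nearest to each other, 0.23 apart, but Col6a2 ranked only 97 among the genes nearest to Col6a1, and Col6a1 ranked 15 for Col6a2.

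The stretches before the start sites of the 4 members whose groups did not overlap, and of Col6a2, are shown because these are the members that had the largest differences. They come from RefSeq (GRCm38.p6), which held 8 of the 10 members, not Col12a1 and Col14a1, and they end at the outermost annotated start of the gene. Each runs 5′ to 3′ on the strand of its gene, and capitals mark the Sp1 family motif GGGCGG, the AP-1 motif TGANTCA and the SMAD motif CAGAC on either strand.
Col6a1, chr10:76726045-76726294, minus strand: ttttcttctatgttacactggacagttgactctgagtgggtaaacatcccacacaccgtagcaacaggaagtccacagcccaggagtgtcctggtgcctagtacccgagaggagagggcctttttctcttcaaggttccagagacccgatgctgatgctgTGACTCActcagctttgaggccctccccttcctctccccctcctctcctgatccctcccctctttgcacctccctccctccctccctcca
Col6a2, chr10:76623631-76623880, minus strand: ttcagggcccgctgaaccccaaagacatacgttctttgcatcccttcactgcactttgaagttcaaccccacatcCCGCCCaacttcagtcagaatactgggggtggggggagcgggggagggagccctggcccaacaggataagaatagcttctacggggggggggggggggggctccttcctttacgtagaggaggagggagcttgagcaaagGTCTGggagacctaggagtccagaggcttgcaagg
Col6a3, chr1:90844002-90844221, minus strand: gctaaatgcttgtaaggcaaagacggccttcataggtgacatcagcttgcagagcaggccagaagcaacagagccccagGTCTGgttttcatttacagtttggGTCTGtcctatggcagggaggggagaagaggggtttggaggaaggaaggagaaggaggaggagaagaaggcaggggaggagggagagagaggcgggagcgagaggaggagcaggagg
Col16a1, chr4:130047590-130047816, plus strand: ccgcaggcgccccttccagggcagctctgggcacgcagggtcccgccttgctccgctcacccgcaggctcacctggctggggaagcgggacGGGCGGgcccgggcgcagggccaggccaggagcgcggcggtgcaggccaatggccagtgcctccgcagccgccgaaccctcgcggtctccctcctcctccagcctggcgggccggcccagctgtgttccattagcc
Col7a1, chr9:108953336-108953585, plus strand: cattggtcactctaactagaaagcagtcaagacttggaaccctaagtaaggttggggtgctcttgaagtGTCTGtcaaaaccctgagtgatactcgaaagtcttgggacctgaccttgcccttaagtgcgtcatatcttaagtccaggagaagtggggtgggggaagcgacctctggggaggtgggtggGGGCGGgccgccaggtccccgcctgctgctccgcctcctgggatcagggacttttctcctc

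In the full windows of 300 bases, GGGCGG was found in 6 of the 8 members, against 35.7% of 32851 promoter windows of the same length. CAGAC was found in 5 of 8, against 49.6%, and TGANTCA in 1 of 8, Col6a1, against 7.81%. Of the other motifs searched on both strands, CANNTG was found in 5 members (72.3% of all windows), CCAAT in 2 (37.4%), GCGTG in 2 (32.4%), ACGTG in 1 (19.6%) and TATAAA in 0 (13.6%). A CANNTG match can overlap a match of ACGTG or GCGTG. No marked motif occurs in all 5 printed stretches. GGGCGG is in those of Col6a2, Col16a1 and Col7a1, CAGAC in those of Col6a2, Col6a3 and Col7a1, and TGANTCA in that of Col6a1. A match in such a window describes its letters only.

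The differences of Col6a1, Col6a2, Col6a3, Col16a1 and Col7a1 were positive in all 17 alternative analyses. They ran from 0.55 to 0.99 for Col6a1, from 0.37 to 1.14 for Col6a2, from 0.33 to 0.56 for Col6a3 and from 0.29 to 0.61 for Col7a1. Part of this was fixed beforehand. Leaving out dim genes, a variance trend with intensity, the ordinary linear model and the replicate block cannot change these differences, only their p. For members whose groups do not overlap, leaving arrays out cannot turn the sign. Col6a1 passed over all genes in 1 of the 17 alternatives, when null replicate 2 and wild-type replicate 1 were both left out. Its difference was then 0.96, with a limma adjusted p of 0.0353. In that fit, of 2 arrays against 2, 365 genes passed in all. No other pair of arrays was left out together, and wild-type replicate 1 held the highest wild-type value of Col6a1. The adjusted p of Col6a1 otherwise ran up to 0.832.

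**Figure D5:**
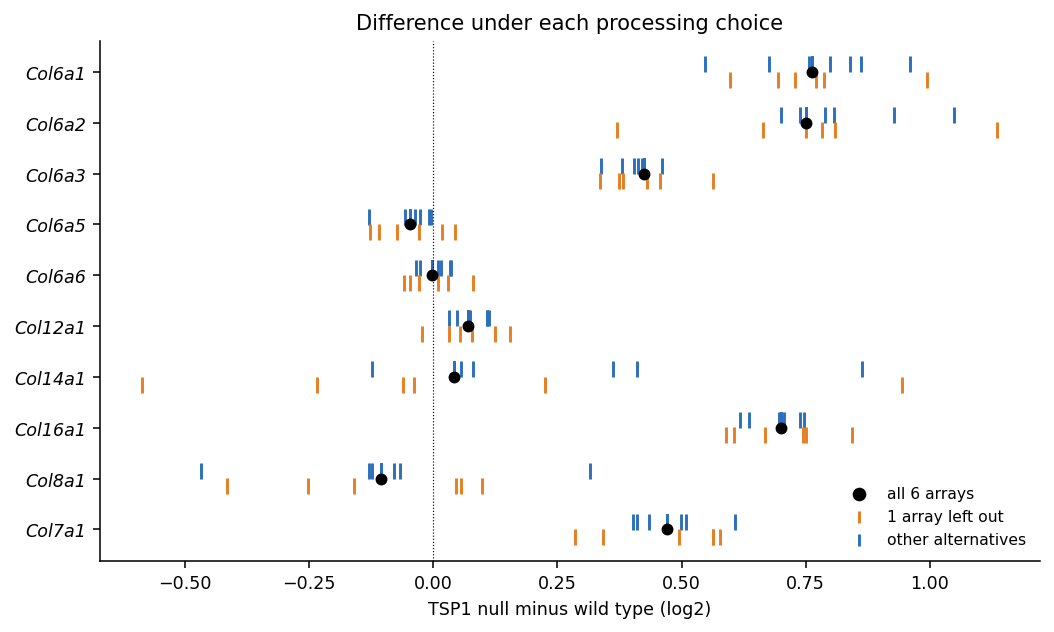
Difference of each collagen gene between TSP1 null and wild-type arrays (log2) with all 6 arrays (black), with 1 array left out (orange) and under the other alternatives (blue). The marks of Col6a1, Col6a2, Col6a3, Col16a1 and Col7a1 all lie above 0, while those of Col14a1 run from -0.59 to 0.94. Some blue marks repeat the black point because the alternative changes only the p.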

How the data were processed

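For each of 6 arrays the authors deposited 41345 log2 values, 1 per probe set, normalized across arrays with Partek and RMA per the submitters' processing notes. For versions, settings and the build there is no source here (not given in the sources used here), and raw scanner files were not used here. RMA compresses differences of dim probe sets. Precision is limited by the number of arrays.

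Names came from the platform's annotation table (23521 with 1 symbol, 1814 with several, 16010 with none). Those with 1 symbol were tested, 1 per gene by highest mean, with no intensity filter. The groups, taken from the sample titles, were compared with limma 3.58.1 (lmFit and eBayes, two-sided) in R 4.3.3 over all 22180 genes. Tested on simulated data of 22180 genes (10 runs), the procedure recovered 63.8% of 2-fold and 93.3% of 4-fold changes, with 4.82% of calls false. Noise was drawn independently for each gene, so these rates do not cover shifts that many genes share on an array. The largest member difference, 1.70-fold for Col6a1, was smaller than the changes simulated. Figures were drawn in Python 3.11.15 with matplotlib 3.10.9.

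The members, the 6 lists of matrix genes and the 8 marker lists were chosen with earlier results of these data known. Genes named besides the members and Thbs1 were the 3 of lowest p per matrix list, the 3 nearest profiles, and marker genes. Col6a4 was named after its value was seen. Marker means per array include all 15 macrophage and 10 fibroblast markers. The endothelial, Schwann, pericyte, contractile, basal, and acinar and ductal lists had mean differences of -0.40, -0.06, 0.0032, 0.07, 0.42 and 0.12. Protein sequences were not used here.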

Additional observations from a re-analysis of the deposited data

How the results depend on the processing

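The 17 alternatives were other normalizations (quantile, arrays centred on their median), leaving out dim genes, averaging probe sets, other variance models, covariates, the replicate block, and leaving out arrays. The share of genes with a positive difference was 55.1%, or 62.8% with arrays centred on their median, and the median over all genes was 0.022, or 0.060 so centred. With limma, the count of genes past the adjusted threshold ran from 0 to 34 when 1 array was left out (34 without the second null array, 1 without the first wild-type array) and was 365 without both arrays. The count of members with p under 0.05 ran from 2 to 4 when 1 array was left out, lowest without the second wild-type array (9.84% of all genes there, 6.70% to 12.3% over these fits), and was 2 with the macrophage covariate (5.84%). Without the second null and first wild-type array, groups did not overlap for 7 members (46.7% of all genes in that fit of 2 arrays against 2) and Col6a1 passed at 0.96.

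Signs turned only for members and pairs near 0, and the cause was not tested. With 1 array left out, Col6a5 ran from -0.13 to 0.043, Col6a6 from -0.059 to 0.079, Col12a1 from -0.023 to 0.15, Col14a1 from -0.59 to 0.94 and Col8a1 from -0.41 to 0.097. The pair Col6a1 against Col6a2 ran from -0.14 to 0.23, Col6a5 against Col6a6 from -0.12 to 0.090 and Col12a1 against Col14a1 from -0.82 to 0.64. Col6a6 was 0.033 after quantile normalization, 0.035 with arrays centred on their median, 0.0090 with array weights and 0.015 with the macrophage covariate, which also gave -0.12 for Col14a1 and 0.31 for Col8a1. Col6a1 against Col6a2 was -0.20 with probe sets averaged and -0.089 without both arrays. Col12a1 against Col14a1 was -0.0076 after quantile normalization and -0.83 without both arrays.

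Whether the replicate numbers pair the arrays is not said in the labels. Deviations of same-numbered arrays from their group means correlated at -0.14, 0.18 and -0.16 across genes. These values cannot show whether arrays were handled in pairs. With the number as a block (replicate block) 3 members had a p under 0.05 (9.99% of all genes), without Col7a1, and 0 genes passed, and the differences were those of the main fit.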
